A study of Homo sapiens with 12 samples.

Results

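CLK1, CLK2, CLK3 and CLK4 encode the CLK family of protein kinases, and SRPK1 and SRPK2 encode 2 members of the SRPK family. They were chosen by symbol, which gave 6 genes of 67049 gene IDs counted in each library. The values come from RNA of HEK293T, a line derived from human embryonic kidney cells, 48 h after transient transfection with the SF3B1 expression plasmid pIRES2-SF3B1. SF3B1 is a core subunit of the U2 snRNP, which recognises the branch point ahead of a 3′ splice site. The 4 groups were the cytoplasm of cells given the K700E plasmid, the cytoplasm of cells given the wild-type (WT) plasmid, the nuclei of cells given K700E and the nuclei of cells given WT, with 3 libraries each. All 12 libraries thus come from cells that received an SF3B1 plasmid by lipid transfection and that kept their own SF3B1 gene, so WT here means plasmid-borne wild-type SF3B1 and not untreated cells. Nothing in the labels states that the 3 libraries within a group are separate cultures, and p-values reflect the spread among these libraries alone, which may be technical.

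Both families phosphorylate SR proteins, splicing factors that carry a domain rich in arginine and serine. SRPK1 and SRPK2 act largely in the cytoplasm, where phosphorylation of the SR proteins lets the import receptor TNPO3 carry them into the nucleus. CLK kinases sit in the nucleus, where they add further phosphates and release SR proteins from nuclear speckles. In human and mouse cells, CLK1 and CLK4 are known for transcripts that keep the introns around exon 4 and stay in the nucleus, and for skipping of exon 4, which removes the kinase domain from the protein. The counts analysed here are per gene and do not part spliced from intron-retaining or exon-skipping transcripts.

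CLK1 and CLK4 are close copies around exon 4, which is why that stretch is shown. In GENCODE release 29 on GRCh38, exon 4 is 91 bases long in both genes, leaves a remainder of 1 when divided by 3, and is skipped in 2 annotated transcripts of each. Exon 4 of CLK3 is 97 bases long, also leaves a remainder of 1, and is skipped in 5 annotated transcripts. The CLK1 and CLK4 exons are at chr2:200860125-200860215 (CLK1, minus strand) and chr5:178617344-178617434 (CLK4, minus strand), and 85 of 91 bases are identical (93.4%). How reads that fit both genes were counted is not given in the sources, so some reads of this stretch may have been shared. Capitals mark the bases that differ.
CLK1 exon 4: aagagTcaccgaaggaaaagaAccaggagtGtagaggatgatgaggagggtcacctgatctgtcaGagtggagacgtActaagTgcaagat
CLK4 exon 4: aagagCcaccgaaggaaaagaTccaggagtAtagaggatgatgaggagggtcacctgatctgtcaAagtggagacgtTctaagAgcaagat

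The end of intron 3, just ahead of this exon, is shown because annotated retained-intron transcripts of both genes span it. The windows hold 50 intron bases and the first 3 exon bases, at chr2:200860213-200860265 in CLK1 and chr5:178617432-178617484 in CLK4, both on the minus strand. In a global alignment 49 of 54 columns were identical (90.7%), and capitals mark bases that differ or have no partner.
CLK1 intron 3 end: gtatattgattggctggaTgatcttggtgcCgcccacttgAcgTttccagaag
CLK4 intron 3 end: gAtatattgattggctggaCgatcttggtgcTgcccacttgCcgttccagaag
The same window of CLK3 matched CLK1 in 29 of 58 aligned columns. The end of intron 4 was less alike between CLK1 and CLK4 (58.6% of columns). Its start was the same run of bases in both, with capitals for the last 3 bases of exon 4.
CLK1 and CLK4 intron 4 start: GATgtatagaatatttttcaaca
CLK3 intron 4 start: GATgtacagccacctttcgtaaa

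Introns 3 and 4 are not the only ones held by annotated retained-intron transcripts. Such transcripts number 8 of 15 for CLK1, 7 of 15 for CLK4, 8 of 27 for CLK3, 4 of 13 for SRPK1, 2 of 15 for SRPK2 and 0 of 7 for CLK2. As a share of transcripts, CLK3 and SRPK1 are alike. Among 13895 protein-coding genes tested below, the median was 1, 17.2% had 4 or more and 5.15% had 7 or more. Of the 12 introns of the principal transcript, retained-intron transcripts span 4 in CLK1 (introns 2, 3, 4 and 7), 4 in CLK4 (introns 3, 4, 11 and 12) and 2 in CLK3 (introns 3 and 4). They span 1 of 15 introns in SRPK1 and 0 of 14 in SRPK2. This describes the annotation and not these libraries.

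On GRCh38 the genes lie apart from each other. CLK1 (ENSG00000013441.16) is on chromosome 2 from 200853009 to 200864744, and CLK4 (ENSG00000113240.13) on chromosome 5 from 178602664 to 178630615. CLK3 (ENSG00000179335.20) is on chromosome 15 from 74598500 to 74645414, and CLK2 (ENSG00000176444.19) on chromosome 1 from 155262868 to 155278491. SRPK1 (ENSG00000096063.16) is on chromosome 6 from 35832966 to 35921342, and SRPK2 (ENSG00000135250.17) on chromosome 7 from 105110704 to 105399308. The strand setting of the counting is not given in the sources used here, so genes that overlap on the other strand may share reads. CLK3 shares 701 exon bases (3.43% of its exon length) with EDC3, SRPK1 shares 265 (3.96%) with LHFPL5, and SRPK2 shares 98 (1.545%) with KMT2E.

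Total counts ran from 13422598 to 18116929 in the cytoplasm and from 9086743 to 11200562 in the nuclei. The 13 mitochondrial mRNAs summed to 4473 to 18783 CPM in cytoplasmic libraries and 907 to 1245 CPM in nuclear ones. CPM is a gene's count relative to the total of its library, here with TMM scaling (the trimmed mean of log ratios between libraries). MALAT1, NEAT1, KCNQ1OT1, MEG3 and FTX, long RNAs of the nucleus, summed to 83.7 to 144 CPM in the cytoplasm and 2692 to 9838 CPM in the nuclei. All 6 markers of HEK293 cells were detected (NEFM, NEFL, LIN28B, PAX2, CDH2 and VIM), with PAX2 lowest at 4.41 to 9.82 CPM. Of 7 markers of other cell types KRT5 had 0 counts, and PTPRC and HBB stayed at or under 0.364 CPM. PECAM1 reached at most 0.614 CPM and COL3A1 3.51. ALB ran from 0.890 to 20.3 CPM and COL1A1 from 14.2 to 111, so these markers were not all absent. Those 7 summed to 16.1 to 31.5 CPM in the cytoplasm and 38.4 to 136 CPM in the nuclei, mostly from COL1A1. SF3B1 itself averaged 7924 CPM in K700E cytoplasm, 9430 in WT cytoplasm, 1600 in K700E nuclei and 1577 in WT nuclei, and counts per gene do not tell the plasmid from the endogenous gene. CPM is relative to the RNA of each fraction, so the amount of a transcript per cell is not given, and fewer cells cannot be told apart from less RNA per cell.

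CLK2 could not be read. Replicate 2 of K700E cytoplasm held 100 of the 105 CLK2 counts of the whole series. The others were 0 and 0 in K700E cytoplasm, 0, 0 and 0 in WT cytoplasm, 1, 0 and 3 in K700E nuclei, and 0, 0 and 1 in WT nuclei. Its neighbours were low too: over 12 libraries 5 of them had from 1 to 74 counts each, among them SCAMP3 with 2 and HCN3 with 3. The next genes outward, MTX1 with 3630 and FDPS with 12116, were not. CLK2 and these 5 neighbours are adjacent protein-coding genes, CLK2 failed the low-count filter, and no level or fold change is drawn from it. Its few counts enter only the summed CLK share given further on, which is printed with and without them. The cause of this gap in the counts was not tested. A pseudogene copy, CLK2P1, had 133 counts in all.

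CLK1 had the highest nuclear level of the measured kinases. It stood at 120.0, 99.5 and 81.6 CPM in the K700E cytoplasm, 118.1, 115.1 and 92.8 in the WT cytoplasm, 505.2, 725.8 and 435.1 in K700E nuclei, and 606.0, 428.4 and 492.7 in WT nuclei (replicates 1 to 3). All 6 cytoplasmic libraries lay below all 6 nuclear ones, while the constructs overlapped within each fraction. CLK1 was 5.53-fold lower in cytoplasm than in nuclei with K700E (-2.47 ± 0.25 on the log2 scale, SE, 3 libraries per group, edgeR quasi-likelihood test with Benjamini-Hochberg adjusted p = 4.4e-07). With WT it was 4.69-fold lower (-2.23 ± 0.24, edgeR adjusted p = 1.09e-06).

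CLK4, the close paralog of CLK1, was distributed like it at a lower level. Its values were 51.2, 48.1 and 46.5 CPM in K700E cytoplasm, 54.8, 53.4 and 52.6 in WT cytoplasm, 188.7, 226.8 and 142.4 in K700E nuclei, and 222.4, 109.4 and 144.8 in WT nuclei. The cytoplasmic libraries were within a narrow range, all under the lowest nuclear one. CLK4 was 3.83-fold lower in K700E cytoplasm than in K700E nuclei (log2 -1.94 ± 0.25, edgeR adjusted p = 6.73e-06) and 2.96-fold lower in WT cytoplasm than in WT nuclei (-1.57 ± 0.25, adjusted p = 4.88e-05). CLK1 and CLK4 were called in both constructs under all 23 alternatives run.

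CLK3, a nuclear CLK kinase whose gene is richer in G and C, had a smaller difference. It stood at 79.6, 66.1 and 87.3 CPM in K700E cytoplasm, 71.6, 79.7 and 89.1 in WT cytoplasm, 134.7, 94.2 and 132.3 in K700E nuclei, and 146.3, 164.6 and 125.5 in WT nuclei. The fractions did not overlap within a construct, but the gap was narrow with K700E, between 87.3 CPM in the highest cytoplasmic library and 94.2 CPM in the lowest nuclear one. CLK3 was 1.55-fold lower in K700E cytoplasm (log2 -0.63 ± 0.21, edgeR adjusted p = 0.0140) and 1.81-fold lower in WT cytoplasm (-0.86 ± 0.21, adjusted p = 0.00189) than in the matching nuclei. The K700E call was lost with no filter on low counts (edgeR adjusted p = 0.0803), and without K700E cytoplasm replicate 2 (0.0789), K700E nucleus replicate 1 (0.0839) or K700E nucleus replicate 3 (0.0645).

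SRPK1, which phosphorylates SR proteins ahead of import, lay on the other side. It had 209.6, 251.6 and 202.8 CPM in K700E cytoplasm, 206.4, 229.6 and 199.1 in WT cytoplasm, 160.5, 199.9 and 137.5 in K700E nuclei, and 156.1, 79.3 and 171.9 in WT nuclei. Within each construct the cytoplasmic libraries were all above the nuclear ones, with K700E at 202.8 against 199.9 CPM where they came nearest. The log2 fold change of cytoplasm over nucleus was 0.42 ± 0.25 with K700E, which was not called (95% interval -0.12 to 0.95, edgeR adjusted p = 0.157). With WT SRPK1 was 1.56-fold higher in the cytoplasm (0.64 ± 0.25, edgeR adjusted p = 0.0346).

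The WT call of SRPK1 rests on the settings. It was lost with library size alone as the scaling (log2 0.13, edgeR adjusted p = 0.628), with upper quartile scaling (0.27, adjusted p = 0.340), with DESeq2 scaling (adjusted p = 0.0593) and in the DESeq2 test (0.0538). It was also lost when genes had to reach 1 CPM in each of the 12 libraries (0.251), in a fit of only the libraries compared (0.0593), and without WT cytoplasm replicate 1 (0.0600), WT cytoplasm replicate 2 (0.0922) or WT nucleus replicate 2 (0.0910). With K700E the gene became called without WT nucleus replicate 2 (edgeR adjusted p = 0.0358). The fold change was above 0 under all 23 alternatives in both constructs.

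SRPK2, the other SRPK kinase, was not called between the fractions. It had 148.8, 150.6 and 133.9 CPM in K700E cytoplasm, 141.6, 136.1 and 126.8 in WT cytoplasm, 99.8, 177.9 and 139.7 in K700E nuclei, and 83.9, 129.8 and 153.0 in WT nuclei. The nuclear libraries spread around the cytoplasmic ones on both sides. The log2 fold change of cytoplasm over nucleus was 0.05 ± 0.24 with K700E (95% interval -0.46 to 0.56, edgeR adjusted p = 0.854) and 0.14 ± 0.24 with WT (-0.37 to 0.65, adjusted p = 0.616). Its sign turned with the scaling, to -0.35 with K700E and -0.39 with WT under library size alone.

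**Figure D1:**
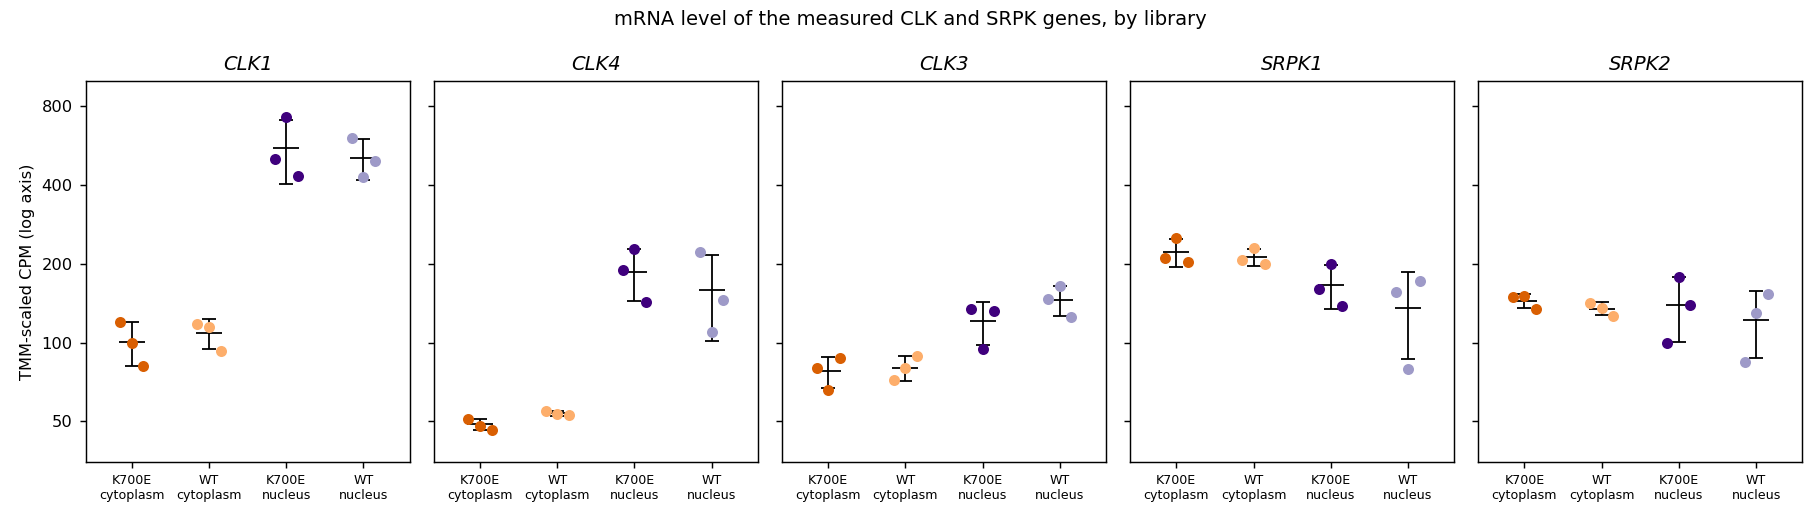
TMM-scaled CPM (log axis) of the 5 measured kinase genes in each library, with 3 points per group for K700E cytoplasm, WT cytoplasm, K700E nucleus and WT nucleus; the long bar is the mean and the whiskers are the SD. CLK1 lies at 81.6 to 120.0 CPM in cytoplasmic libraries and 428.4 to 725.8 CPM in nuclear ones, while SRPK2 overlaps between the fractions.

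Large parts of the transcriptome differed between the fractions, and the kinases are read against that. With K700E, 3 of the 5 kinase genes tested were called lower in the cytoplasm and 0 higher, where 65.9% of 20394 genes tested were called in either direction (37.9% lower and 28.1% higher). With WT, 3 were called lower and 1 higher, where 67.1% of genes were called (40% lower and 27.1% higher). These were 5723 genes higher and 7725 lower with K700E and 5517 and 8163 with WT. Library size alone as the scaling gave 4215 higher and 9460 lower with K700E and 3775 and 10263 with WT, and upper quartile scaling 4423 and 9249 with K700E. In both constructs the libraries of the fractions did not overlap for 4 of the 5, against 70.7% of all genes with K700E and 70.1% with WT. Taken in either direction, these counts are near the share of all genes. Among protein-coding genes alone, 27.4% were called lower and 36.5% higher with K700E, and 29.5% and 35.4% with WT. Against that share more of the kinases were called lower, but they are only 5 genes. By the size of the difference, 8.06% of the 13895 protein-coding genes tested lay below CLK1 with K700E and 11.5% with WT. For CLK4 the share was 11.8% with K700E and 17.7% with WT, and for CLK3 30.7% and 28.7%. SRPK1 had 55.8% of protein-coding genes below it with K700E and 63.2% with WT, and SRPK2 46.2% and 50.1%, both near the middle. The median log2 fold change of protein-coding genes was 0.19 with K700E and 0.13 with WT, and that of all genes -0.29 and -0.40.

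**Figure D2:**
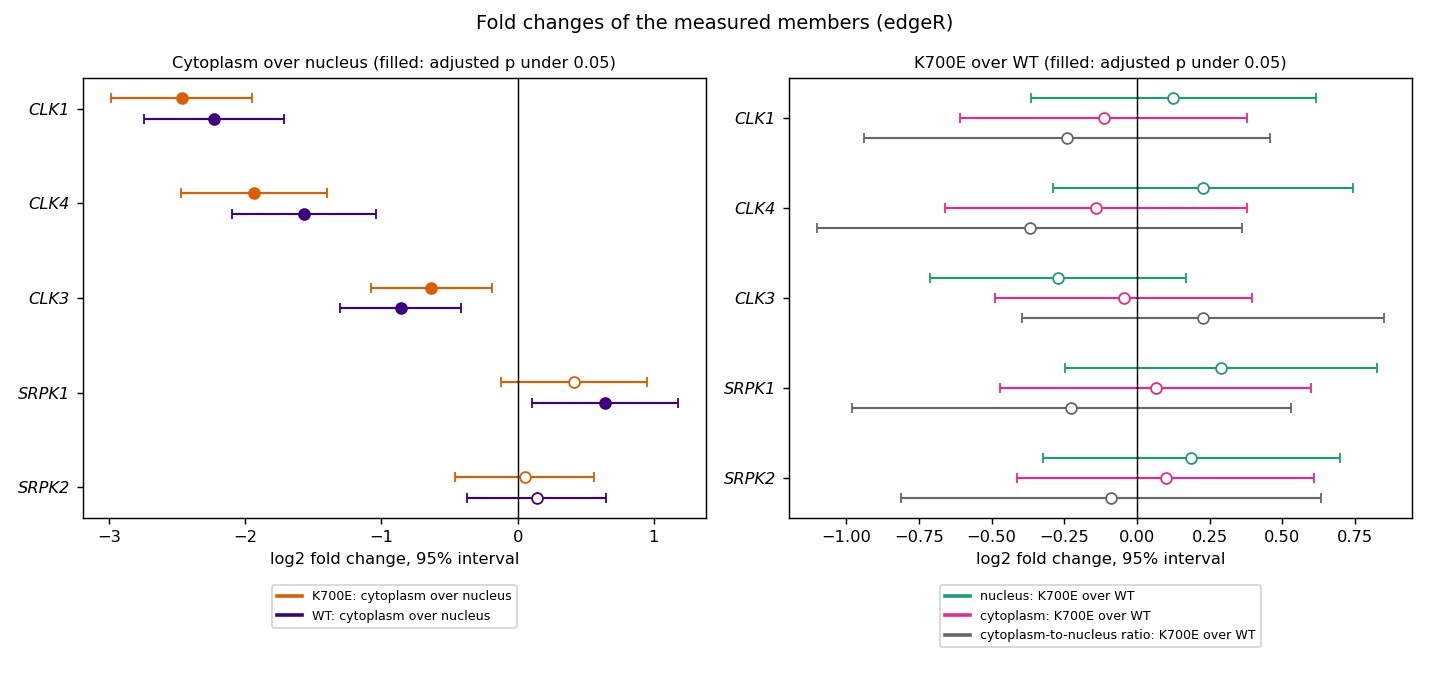
Log2 fold changes of the 5 measured kinase genes with 95% intervals from edgeR, cytoplasm over nucleus for each construct on the left and K700E over WT on the right, with filled points for an adjusted p under 0.05. On the left CLK1 is at -2.47 and -2.23 while SRPK2 is at 0.05 and 0.14, and on the right every interval includes 0.

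The CLK genes were set against the SRPK genes as ratios of counts within a library, which need no scaling between libraries. CLK1 had 0.396 to 0.572 counts for each SRPK1 count in K700E cytoplasm and 0.466 to 0.572 in WT cytoplasm. In nuclei it had 3.15 to 3.63 with K700E and 2.87 to 5.40 with WT. CLK1 was thus the less counted gene in all cytoplasmic libraries and the more counted one in all nuclear libraries. The mean log2 ratio of CLK1 to SRPK1 was -1.06 in the cytoplasm and 1.85 in the nucleus, a difference of -2.91. An exact two-sided permutation of the fraction labels within construct gave p = 0.005, the smallest its 400 arrangements allow (adjusted p = 0.008 over 8 pairs, n = 6 libraries per fraction).

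The other measured pairs moved the same way. The difference of the mean log2 ratio, cytoplasm minus nucleus, was -2.47 for CLK1 to SRPK2, -2.28 for CLK4 to SRPK1, -1.85 for CLK4 to SRPK2 and -1.31 for CLK3 to SRPK1, each at the same smallest exact permutation p = 0.005 (adjusted p = 0.008). CLK3 to SRPK2 differed by -0.88 (exact permutation p = 0.02, adjusted p = 0.0267). The K700E nucleus replicate 2 had a log2 ratio of CLK3 to SRPK2 of -0.92, inside the cytoplasmic range. Both pairs with CLK2 are left unread for the reason given above. The 6 measured pairs reuse the same 5 genes, so they are not separate results. Over all genes tested, the libraries of the fractions did not overlap for 70.7% with K700E and 70.1% with WT. How many other gene pairs would reach the smallest p was not tested. No measured pair passed the test between K700E and WT when construct labels were permuted within fraction: the 6 measured differences ran from -0.37 to -0.08, with exact permutation adjusted p from 0.413 to 0.725. For CLK4 to SRPK2 the cytoplasmic log2 ratios did not overlap, at -1.64 to -1.53 with K700E and -1.37 to -1.27 with WT. In nuclei they overlapped, at 0.03 to 0.92 with K700E and -0.25 to 1.41 with WT. The exact permutation test averages both fractions (adjusted p of 0.725 for that pair), so it does not address the cytoplasm alone. No separate test was run there, and the share of other gene pairs without overlap was not taken.

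**Figure D3:**
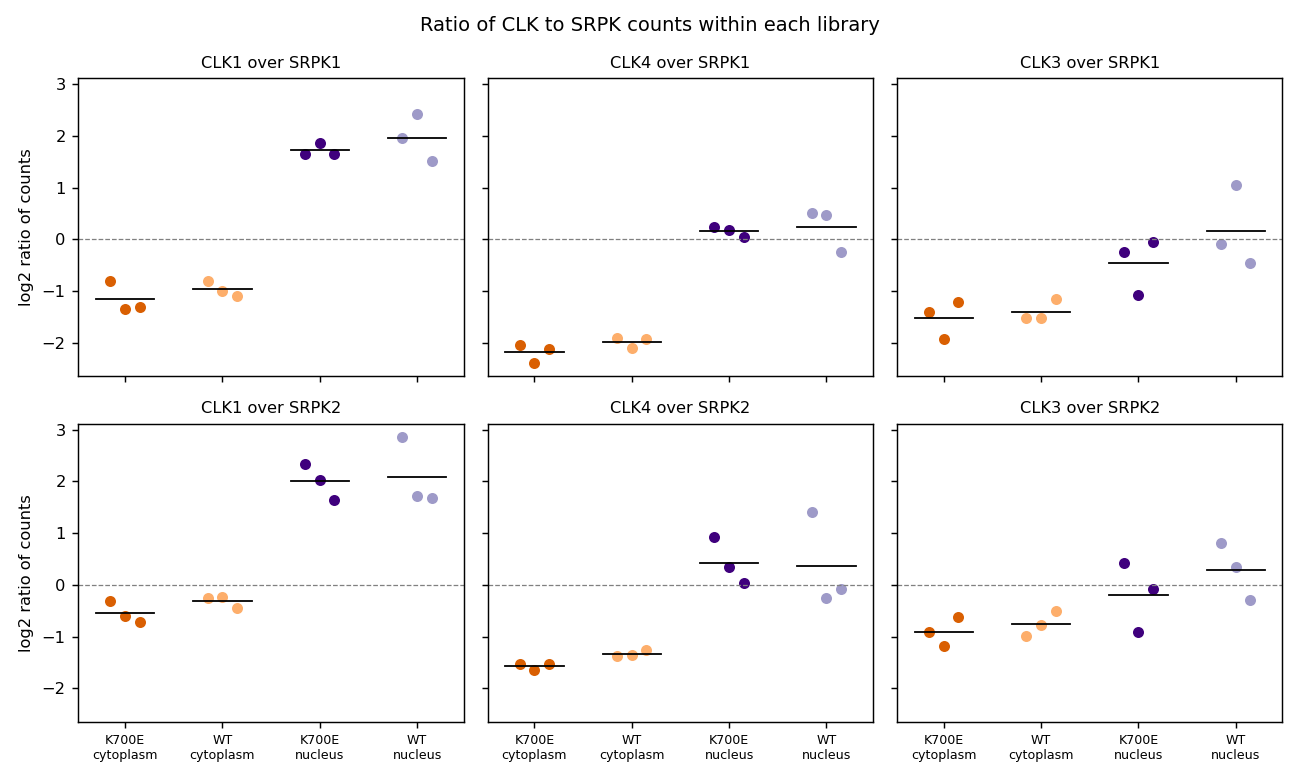
Log2 ratio of CLK to SRPK counts in each library for the 6 measured pairs, with points for libraries, bars for group means and a dashed line at equal counts; groups run from K700E cytoplasm to WT nucleus. CLK1 over SRPK1 averages -1.06 in the cytoplasm and 1.85 in the nucleus, and the constructs overlap within each fraction except for CLK4 over SRPK2 in the cytoplasm.

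Divided by transcript length, the order of the genes also differed between the fractions. In K700E cytoplasm CLK1 had 53.2 ± 10.2 CPM per kb of principal transcript, SRPK1 48.2 ± 5.75, CLK3 42.1 ± 5.80, SRPK2 39.0 ± 2.48 and CLK4 18.9 ± 0.928 (SD, n = 3). In WT cytoplasm the order was the same, at 57.6 ± 7.34 for CLK1, 46.1 ± 3.47 for SRPK1, 43.4 ± 4.74 for CLK3, 36.4 ± 2.02 for SRPK2 and 20.9 ± 0.431 for CLK4. Neighbours in that order overlapped, except SRPK2 and CLK4 with both constructs and CLK3 and SRPK2 with WT.

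In the nuclei CLK1 stood far above the rest, at 294 ± 80.3 CPM per kb with K700E and 270 ± 47.6 with WT. CLK4 (72.4 ± 16.5 with K700E, 61.9 ± 22.5 with WT) and CLK3 (65.2 ± 12.3 with K700E, 78.8 ± 10.6 with WT) followed and overlapped. SRPK2 (37.6 ± 10.5 with K700E, 33.0 ± 9.50 with WT) and SRPK1 (36.1 ± 6.87 with K700E, 29.6 ± 10.8 with WT) came last and overlapped too. The 4 CLK genes, the few counts of CLK2 included, made up 56.96 ± 2.91% of the summed level per length of the 6 genes in K700E cytoplasm, 59.6 ± 0.643% in WT cytoplasm, 85.4 ± 1.47% in K700E nuclei and 86.6 ± 3.32% in WT nuclei (SD, n = 3). With CLK2 left out, an alternative chosen after the data were seen, CLK1, CLK3 and CLK4 made up 56.7 ± 3.41% in K700E cytoplasm, 59.6 ± 0.643% in WT cytoplasm, 85.4 ± 1.47% in K700E nuclei and 86.6 ± 3.32% in WT nuclei.

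These levels per length depend on the length taken. CLK3 has 1846 bases in its principal transcript and 20443 in the union of its annotated exons, and with the union as length it took the lowest place, at 3.80 CPM per kb in K700E cytoplasm and 7.12 in WT nuclei. SRPK1 was then above CLK1 in the cytoplasm (33.1 against 19.4 CPM per kb with K700E, and 31.6 against 21.0 with WT), while CLK1 stayed first in nuclei (107 with K700E and 98.5 with WT). The share of the 4 CLK genes was then 34.9% in K700E cytoplasm, 37.5% in WT cytoplasm, 74.4% in K700E nuclei and 75.9% in WT nuclei, and without CLK2 it was 34.4% in K700E cytoplasm, with the other groups at the same rounded values.

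K700E and WT did not differ detectably in any kinase. In nuclei the log2 fold change of K700E over WT was 0.13 ± 0.23 for CLK1 (95% interval -0.37 to 0.62), 0.23 ± 0.24 for CLK4 (-0.29 to 0.74), -0.27 ± 0.21 for CLK3 (-0.71 to 0.17), 0.29 ± 0.25 for SRPK1 (-0.25 to 0.83) and 0.19 ± 0.24 for SRPK2 (-0.32 to 0.70). The edgeR adjusted p ran from 0.695 to 0.885. The libraries of the constructs overlapped for all 5, where 8.78% of all genes had no overlap. Of 20394 genes 0% were called there (0 genes, with 1389 at an unadjusted p under 0.05; the DESeq2 test called 1), so the kinases share that result with every gene tested.

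In the cytoplasm the log2 fold change of K700E over WT was -0.11 ± 0.23 for CLK1 (95% interval -0.61 to 0.38), -0.14 ± 0.25 for CLK4 (-0.66 to 0.38), -0.05 ± 0.21 for CLK3 (-0.49 to 0.40), 0.06 ± 0.25 for SRPK1 (-0.47 to 0.60) and 0.10 ± 0.24 for SRPK2 (-0.41 to 0.61). All 5 had an edgeR adjusted p of 1, where 0.0049% of genes were called (1 gene, with 929 at an unadjusted p under 0.05). CLK4 was the one kinase whose libraries did not overlap, at 46.5 to 51.2 CPM with K700E and 52.6 to 54.8 CPM with WT. Of all genes, 13.6% did not overlap in that comparison. With 3 libraries per group, changes of any size within these intervals remain possible. The intervals rest on a spread pooled over all 12 libraries, of which the nuclear ones varied more. A fit of the cytoplasmic libraries alone had 1373 of 15200 genes at an unadjusted edgeR p under 0.05 and called 0. One of the nuclear libraries alone had 695 of 18623 and also called 0.

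Tested as an interaction, the shift in the ratio of cytoplasm to nucleus between K700E and WT was -0.24 ± 0.33 for CLK1 (95% interval -0.94 to 0.46), -0.37 ± 0.35 for CLK4 (-1.10 to 0.36), 0.23 ± 0.30 for CLK3 (-0.40 to 0.85), -0.23 ± 0.36 for SRPK1 (-0.98 to 0.53) and -0.09 ± 0.34 for SRPK2 (-0.81 to 0.63), in log2 units. None was called, with edgeR adjusted p from 0.980 to 1.00, where 0% of genes were (0 genes, 672 at an unadjusted p under 0.05; the DESeq2 test called 2 higher and 1 lower). The SRPK1 call with WT alone does not show a difference between constructs.

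Within a fraction CLK1, CLK3, CLK4 and SRPK1 varied from library to library alongside a trend with the GC content of transcripts, whose part in their levels was not tested beyond the alternatives given next. Averaged over all annotated transcripts of a gene, CLK1 and CLK4 have 38.1% and 38.6% G and C, SRPK1 and SRPK2 44.2% and 46.1%, and CLK3 56.8%. A slope of log2 CPM on GC content was taken for each library relative to the others of its fraction. It was -0.351 per 10 percentage points in K700E nucleus replicate 2, where CLK1 (725.8 CPM), CLK4 (226.8), SRPK1 (199.9) and SRPK2 (177.9) were at the highest of all 6 nuclear libraries and CLK3 (94.2) at the lowest. It was 0.451 in WT nucleus replicate 2, where CLK1 (428.4 CPM), CLK4 (109.4) and SRPK1 (79.3) were at the lowest and CLK3 (164.6) at the highest. SRPK2 did not follow there: at 129.8 CPM it was inside the range of the 6 nuclear libraries, whose lowest was 83.9 in WT nucleus replicate 1. In the cytoplasm the steepest upward slopes, 0.246 in K700E replicate 3 and 0.176 in WT replicate 3, went with the lowest CLK1 of each construct (81.6 and 92.8 CPM) and the highest CLK3 (87.3 and 89.1).

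With each library's GC trend removed within its fraction, CLK1, CLK3 and CLK4 stayed called in both constructs, and SRPK1 with K700E became called (log2 0.48, edgeR adjusted p = 0.0446). Without the 3 libraries of the steepest upward slope (WT nucleus replicate 2 and replicate 3 of both cytoplasms), SRPK1 was called with K700E (0.56, edgeR adjusted p = 0.0326) and not with WT (0.49, adjusted p = 0.0888). K700E nucleus replicate 2, with the steepest downward slope, stayed in that fit. Left out alone, it left CLK1 (log2 -2.21), CLK4 (-1.75) and CLK3 (-0.76) called with K700E and SRPK1 (0.59) not called. In none of these 3 settings was a kinase called between the constructs. The first 2 were chosen after the data were seen.

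The same spread shows in how the kinases followed each other within a fraction, given as Pearson's r of log2 CPM over 6 libraries. CLK1 and CLK4 went together (r = 0.725 in cytoplasm, 0.888 in nuclei), whereas CLK3 ran against CLK1 (-0.459 in cytoplasm, -0.721 in nuclei) and against SRPK1 (-0.746 in cytoplasm, -0.80 in nuclei). SRPK1 and SRPK2 had r = 0.602 in cytoplasm and 0.149 in nuclei. The libraries share depth and GC trend, so these values are a description.

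Over all 12 libraries, which fall into the 2 fractions, the protein-coding genes most like each kinase were sought among 10968 with a mean of at least 5 CPM. For CLK1 they were TIAL1, an RNA-binding regulator of splicing (r = 0.994), ZNG1F (0.993) and GPR137C (0.993). ZNG1F has near-identical copies, and its counts are uncertain because reads can fit several of them. For CLK4 they were SMARCE1, a subunit of the BAF chromatin remodelling complex, UBR1, a ubiquitin ligase, and PTBP2, a splicing repressor (each r = 0.992). CLK4 was 84th in likeness to CLK1, and CLK1 37th in likeness to CLK4 (r = 0.981).

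For CLK3 the most alike were IFFO1 (0.981), VPS16 (0.979) and ABCC10 (0.975). For SRPK1 they were DNM1L, the mitochondrial fission GTPase (0.985), KIAA1586 (0.976) and MTAP, an enzyme of methionine salvage (0.975). SRPK2, with no clear difference between fractions, had a weaker best match in REPS1 (0.885), followed by PLA2G4A (0.873). Within a fraction the likeness could differ: REPS1 had r = 0.0469 with SRPK2 over the cytoplasmic libraries and 0.992 over the nuclear ones, and TIAL1 had 0.967 and 0.790 with CLK1.

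The substrates of the kinases were called in both directions, as were all genes. Of 12 SR protein genes, 3 were called higher and 7 lower in the cytoplasm with K700E (median log2 fold change -0.60), where 28.1% of all genes were called higher and 37.9% lower (median -0.29). With WT 3 were called higher and 2 lower (-0.13), where 27.1% of all genes were called higher and 40% lower (-0.40). Among protein-coding genes alone, 36.5% were called higher and 27.4% lower with K700E (median 0.19). With WT these shares were 35.4% and 29.5% (0.13). Against protein-coding genes the list thus leaned to the nucleus with K700E. SRSF11 was 570 CPM in K700E cytoplasm against 4763 in K700E nuclei (log2 -3.06 ± 0.25, edgeR adjusted p = 6.64e-08), and -2.36 ± 0.24 with WT (adjusted p = 5.13e-07). SRSF5 was also lower in the cytoplasm (log2 -2.16 with K700E and -1.45 with WT, edgeR adjusted p = 0.000112 and 0.00244). SRSF3, the smallest SR protein, was higher (1.43 and 1.998, edgeR adjusted p = 0.000481 and 2.53e-05), as was SRSF8 (1.54 and 1.94, adjusted p = 1.08e-05 and 1.08e-06). In the change of the ratio between constructs the list's median was -0.56 against 0.05 over all genes, with 0 of 12 called. A negative median was not particular to the substrates. In the same comparison it was -0.33 for the SR-related and speckle genes and -0.35 for the related kinases, both described below. For the phosphatase, import and chaperone genes it was -0.25. SRSF1, the best known substrate of SRPK1, had -1.48 ± 0.46 there (edgeR unadjusted p = 0.00547, adjusted p = 0.980) and was named after its values were seen.

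Genes of SR-related and speckle proteins were likewise called in both directions. Of 21 genes, 3 were called higher and 9 lower in the cytoplasm with K700E (median -0.42), where 28.1% of all genes were called higher and 37.9% lower, and 5 higher and 8 lower with WT (-0.30), where 27.1% were higher and 40% lower. LUC7L3, a U1 snRNP-associated factor, was lower (log2 -3.55 with K700E and -2.34 with WT, edgeR adjusted p = 2.66e-07 and 1.02e-05). So was U2AF1, which reads the AG of the 3′ splice site (-3.05 and -2.42, adjusted p = 4.45e-07 and 3.37e-06). U2AF1 has a near-identical copy, so its counts of 7.96 CPM in K700E cytoplasm and 66.1 in K700E nuclei are uncertain. RNPS1, a factor of the exon junction complex (1.53 and 1.50, edgeR adjusted p = 7.17e-06 and 8.43e-06), and RSRC1 (1.39 and 1.42, adjusted p = 6.14e-05 and 5.09e-05) were higher.

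Related kinases were also called in both directions. Of 11 genes 10 passed the filter, of which 2 were called higher and 5 lower in the cytoplasm with K700E (median -0.33), where 28.1% of all genes were higher and 37.9% lower, and 2 higher and 2 lower with WT (0.04), where 27.1% were higher and 40% lower. Against the protein-coding share (36.5% higher and 27.4% lower with K700E), more of these 10 were called lower with K700E. With WT (35.4% and 29.5%) that was not so. SRPK3, the third SRPK gene, known from muscle, was low and mostly nuclear. It had 0.301 CPM in K700E cytoplasm against 8.72 in K700E nuclei, and 0.558 in WT cytoplasm against 12.5 in WT nuclei (log2 -4.78 ± 0.55 with K700E and -4.41 ± 0.51 with WT, edgeR adjusted p = 1.85e-06 and 2.09e-06). It shares 1432 exon bases (30.2% of its exon length) with PLXNB3 on the same strand, which had 210 counts in all against 786 for SRPK3. PRPF4B, which phosphorylates splicing factors of the tri-snRNP, was lower in the cytoplasm (-1.61 with K700E and -0.92 with WT, edgeR adjusted p = 0.000546 and 0.0211), and HIPK2 higher (1.38 and 1.33, adjusted p = 3.84e-05 and 5.43e-05). DYRK3, a kinase that dissolves condensates, was called with WT (0.62, edgeR adjusted p = 0.0182) and had -0.04 with K700E (adjusted p = 0.885).

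The phosphatases that act on SR proteins, their import receptor and the chaperones that hold SRPK in the cytoplasm were the list that moved 1 way. Of 13 genes 12 passed the filter, of which 11 were called higher in the cytoplasm and 0 lower with each construct, with medians of 1.75 with K700E and 2.03 with WT. Among protein-coding genes tested, 36.5% were called higher with K700E and 35.4% with WT, and among all genes 28.1% and 27.1%. HSP90AB1, a constitutive HSP90, had 2865 CPM in K700E cytoplasm against 269 in K700E nuclei (log2 3.41 ± 0.24, edgeR adjusted p = 2.44e-08) and a log2 fold change of 3.16 ± 0.23 with WT (edgeR adjusted p = 3.95e-08). HSP90AB1 has processed copies in the genome that can share its reads. PPP1CA, a catalytic subunit of PP1, had 3.03 with K700E and 2.70 with WT (edgeR adjusted p = 6.87e-07 and 1.84e-06). TNPO3, the import receptor of SR proteins, had 0.81 and 1.06 (edgeR adjusted p = 0.00155 and 0.000171). None of the members of these 4 lists was called in a comparison of the constructs.

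**Figure D4:**
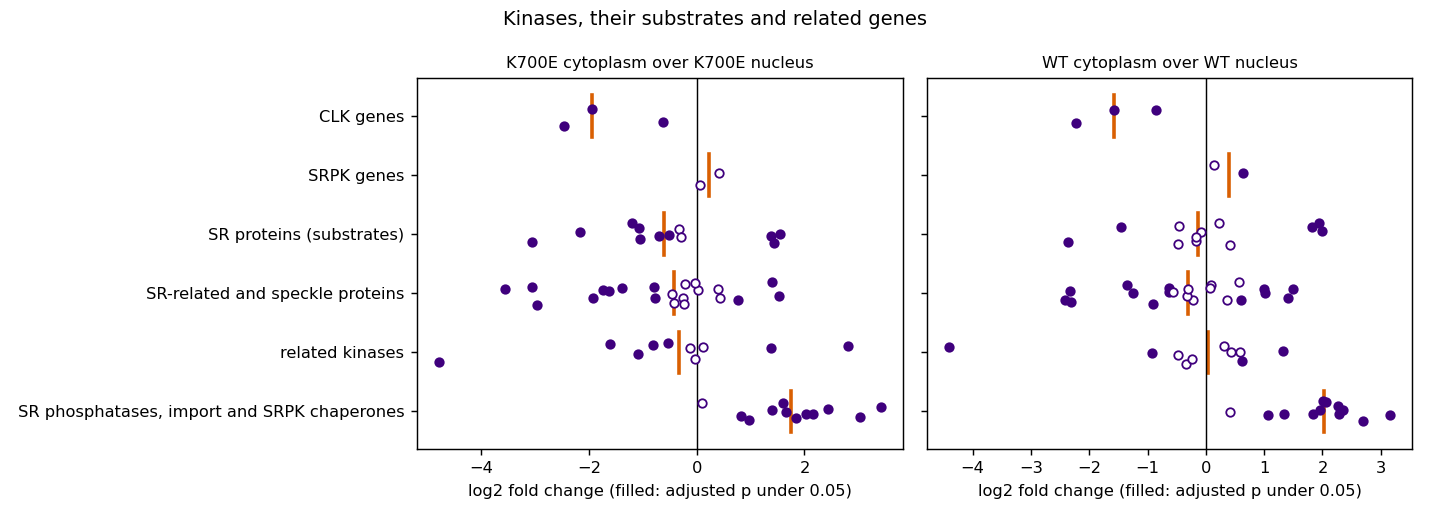
Log2 fold change of cytoplasm over nucleus with K700E (left) and WT (right) for CLK genes, SRPK genes and the 4 lists of related genes, 1 point per gene tested, filled for an edgeR adjusted p under 0.05, with a bar at the median. CLK1, CLK3 and CLK4 lie between -2.47 and -0.63, SRPK1 and SRPK2 between 0.05 and 0.64, and the phosphatase, import and chaperone genes have medians of 1.75 and 2.03. SRPK3, drawn with the related kinases, is at -4.78 with K700E and -4.41 with WT.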

How the data were processed

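Counts per gene were deposited by the authors, 1 file per library, for nuclear and cytoplasmic RNA of transfected HEK293T cells. Per the submitters' processing notes HISAT2 and DESeq were used. Not given in the sources used here are their versions, the counting program with its strand setting, the genome build and the RNA selection. Libraries were built with a NEBNext Ultra RNA kit from 1 µg of RNA, per the labels' protocols. Of 67049 IDs, 60463 were matched to a symbol and 58396, with 99.7% of counts, to GENCODE release 29 on GRCh38, which also gave lengths, GC content and sequences. No pair of libraries was identical.

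All 12 libraries, in 4 groups of 3, were fitted with edgeR 4.0.16 in R 4.3.3 (quasi-likelihood F test, TMM scaling, 1 term per group, no replicate block). The filter filterByExpr (minimum count 10, minimum total 15) left 20394 genes, over which p-values were Benjamini-Hochberg adjusted and called under 0.05. The 5 comparisons were cytoplasm against nucleus per construct, K700E against WT per fraction, and the interaction. The biological coefficient of variation was 0.306. Taken per group it was 0.258 in K700E cytoplasm, 0.199 in WT cytoplasm, 0.301 in K700E nuclei and 0.407 in WT nuclei. The fit pools the groups, so SEs and intervals do not measure only the libraries compared. Log2 CPM used a prior count of 2 and count ratios a pseudocount of 0.5. Ratios were tested by exact two-sided permutation within strata with SciPy 1.17.1. The pipeline was tested on simulated counts.

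The members and the gene lists were chosen with earlier results of these data known. Named were the 6 genes, SF3B1, for each list the 2 called genes of at least 5 CPM with the largest rise and the 2 with the largest fall in WT cytoplasm against WT nucleus, and the 3 genes most like each member. A name that rule gave is not reported here, and TNPO3 and SRSF1 were added. DESeq2 1.42.0, limma 3.58.1 voom, other scalings and filters, a replicate block, each library left out, a GC correction and other lengths were tried as alternatives.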

Additional observations from a re-analysis of the deposited data

Results flagged for a closer look

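CLK2 had 100 counts in K700E cytoplasm replicate 2, a gene that the comparisons leave out because it failed the low-count filter. The WT cytoplasm libraries had 0 counts each, which at a floor of 3 counts is below that value, and the other 2 K700E cytoplasm libraries had 0. The value comes from a single library, and whether it comes from CLK2 transcripts was not tested.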

How the results depend on the processing

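No result reversed among those called. CLK1 ran from -2.87 to -2.21 with K700E and from -2.74 to -2.03 with WT (log2 fold change, cytoplasm over nucleus) over 23 alternatives, CLK4 from -2.34 to -1.75 and from -2.07 to -1.19, and CLK3 from -1.06 to -0.49 and from -1.38 to -0.72. SRPK1 ran from 0.01 to 0.59 and from 0.13 to 0.89, SRPK2 from -0.35 to 0.29 and from -0.39 to 0.39. Library size alone moved the median of all genes to -0.71 with K700E and -0.92 with WT, upper quartile scaling to -0.66 and -0.77, and DESeq2 scaling to -0.41 with K700E; the count ratios do not depend on scaling. With no filter, 1 kinase was called in the K700E cytoplasm against WT cytoplasm, CLK2, from a single library. The share of the 4 CLK genes was 38.6% in K700E cytoplasm, 41.2% in WT cytoplasm, 73.8% in K700E nuclei and 75.8% in WT nuclei by raw counts, and 34.9%, 37.5%, 74.4% and 75.9% with the union of exons as length, in the same order of groups; leaving out CLK2 moved it to 38.3% and 34.4% in K700E cytoplasm and by no rounded digit elsewhere. The filter of 1 CPM left 3938 genes called lower with K700E (7725 in the reported fit) and 4074 with WT (8163), since it removes genes that are low in a fraction. Between constructs, calls over all genes without a filter were 10 higher and 26 lower in nuclei, 50 and 35 in the cytoplasm and 24 and 7 for the ratio, against 1 in all in the reported fit, and DESeq2 called 11 and 2 in the cytoplasm.

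Same-numbered libraries deviated with correlations from -0.167 to 0.427, so the numbers were not taken to pair libraries. A fit with the replicate block called 3 kinases with K700E and 4 with WT, as without it, and 0 between constructs. At 9086743 to 18116929 counts per library, CLK2 is limited by its counts and the other genes by the spread between 3 libraries.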
